A study of Homo sapiens with 8 samples.

Results

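The hypoxia-inducible factor (HIF) machinery was followed through 10 genes: EPAS1, HIF1A, HIF3A, ARNT, ARNT2, EGLN1, EGLN2, EGLN3, HIF1AN and VHL. They are 10 of the 19775 genes on the arrays, and they hold 31 of the 41097 probe sets for which the platform annotation lists a single gene symbol. A further 2 probe sets that list a member together with other symbols were left out. The set was chosen by the difference of EPAS1 between estradiol and vehicle on these arrays, which was already known, and the other genes were taken because they act with it. Their differences between the groups are therefore given as a description, with no p-values, and counts of members past a threshold are no evidence about them.

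The arrays came from K562, an established human erythroleukaemia line that descends from chronic myeloid leukaemia cells, here with a stable p42-C/EBPa-ER fusion. This is the full-length form of the granulocyte factor C/EBPα joined to the oestrogen receptor, which estradiol moves into the nucleus. A total of 4 cultures received 1 µM beta-estradiol and 4 received ethanol vehicle, all for 6 h and all carrying the fusion. The medium of both groups lacked phenol red and held 10% serum stripped with charcoal. Cells without the fusion were not analysed here. The sources used here do not say whether the line is 1 clone or a pool, nor at what oxygen level it was kept. The sample titles call the 4 samples of a group biological replicates and say no more, so p-values reflect how these samples vary, which may be technical.

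HIF factors are pairs of an oxygen-regulated alpha subunit, encoded by HIF1A, EPAS1 (also called HIF-2α) or HIF3A, and a stable partner encoded by ARNT or ARNT2. When oxygen is plentiful, the prolyl hydroxylases EGLN1, EGLN2 and EGLN3 mark the alpha subunits and the VHL ubiquitin ligase has them degraded, while the asparaginyl hydroxylase HIF1AN weakens their activity. The alpha subunits are thus set largely at the protein level, which these arrays do not measure. EPAS1 is best known from endothelial cells, from macrophages and from the cells that make erythropoietin.

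All values are log2 expression values, on which a difference of 1 is a doubling, and the median of an array ran from 4.97 to 5.08. A probe set below that band was not shown to be above background. Of the 31 probe sets, 11 lay below the median of every array and 4 below the lower quartile of every array (3.67 to 3.74). Precision is limited by having 4 arrays a group. Vehicle replicate 2 stood apart, with an SD of log2 differences from the other vehicle arrays of 0.208 to 0.251 over all genes, against 0.133 to 0.169 among those others. Estradiol replicate 1 also stood apart, at 0.181 to 0.188 from the other estradiol arrays against 0.131 to 0.144 among those. Markers of the line were present, with 9 of 9 measured erythroid genes above the median of every array. Their mean was lower with estradiol, at 10.47 to 10.50 against 10.83 to 10.90 with vehicle, and the groups did not overlap. Of these 9 genes 4 fell and 0 rose (limma, adjusted p below 0.05 over all genes): the erythroid nuclear protein HEMGN, with a difference of −1.61, the erythroid transcription factors GATA1, with −0.89, and KLF1, with −0.71, and the embryonic globin HBE1, with −0.17. Among markers of other cell types that hold EPAS1, 6 of 7 measured macrophage genes lay below the median of every array. The mean of those 7 genes ran from 4.22 to 4.36 with estradiol and from 4.29 to 4.35 with vehicle, so the groups overlapped. Of 10 endothelial genes, 6 lay above the median of every array and 3 below, among them CDH5 at 3.51 with estradiol and 3.57 with vehicle and KDR at 3.15 and 3.24. Within that list PECAM1, an adhesion molecule, rose by 0.56 (limma, adjusted p = 0.000451) and EGFL7, a secreted vessel factor, fell by 0.79 (adjusted p = 0.000302). The mean of the 10 endothelial genes ran from 5.18 to 5.23 with estradiol and from 5.20 to 5.30 with vehicle. Of 6 fibroblast genes 3 lay above the median of every array and 3 below. The mean of the 6 ran from 5.17 to 5.23 with estradiol and from 5.17 to 5.29 with vehicle. The part of these marker levels, the erythroid ones included, in the results was not tested.

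EPAS1 RNA was 7.49-fold higher with estradiol, the 14th largest increase among the 19775 genes. ARNT, which encodes the partner of the alpha subunits, was 1.44-fold higher on the probe set that stands for it. HIF1A and the hydroxylase EGLN1 were higher by less, 1.14-fold each. The other 6 genes differed by 0.16 or less on the log2 scale, in either direction. In RNA from whole cultures, more RNA per cell and more cells with that RNA cannot be told apart.

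On the EPAS1 probe set with the strongest signal, 200878_at, the estradiol arrays read 9.69, 9.72, 9.54 and 9.63 and the vehicle arrays 6.87, 6.71, 6.78 and 6.62. The lowest estradiol array lay 2.68 above the highest vehicle array, so the groups were far from overlapping. The means were 9.65 ± 0.077 and 6.74 ± 0.107 (SD, n = 4), a difference of 2.90 ± 0.064 (SE). With any 1 array left out, the difference stayed between 2.86 and 2.95.

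The other EPAS1 probe sets differed by less. On 200879_s_at the estradiol arrays read 6.16, 5.67, 5.41 and 5.58 and the vehicle arrays 4.26, 5.25, 4.68 and 4.73. This probe set was 0.97 ± 0.21 (SE) higher, with vehicle replicate 2 only 0.17 below the lowest estradiol array and a spread between replicates several times that of the leading probe set. The third, 241055_at, read 3.12 to 3.19 with estradiol and 2.94 to 3.29 with vehicle. It lay below the lower quartile of every array in both groups, and its groups overlapped. On 200879_s_at 3 of the 4 vehicle arrays also lay below the median of their own array. The mean of the 3 probe sets was 1.30 higher on the log2 scale, a value that includes both of these dim probe sets.

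**Figure D1:**
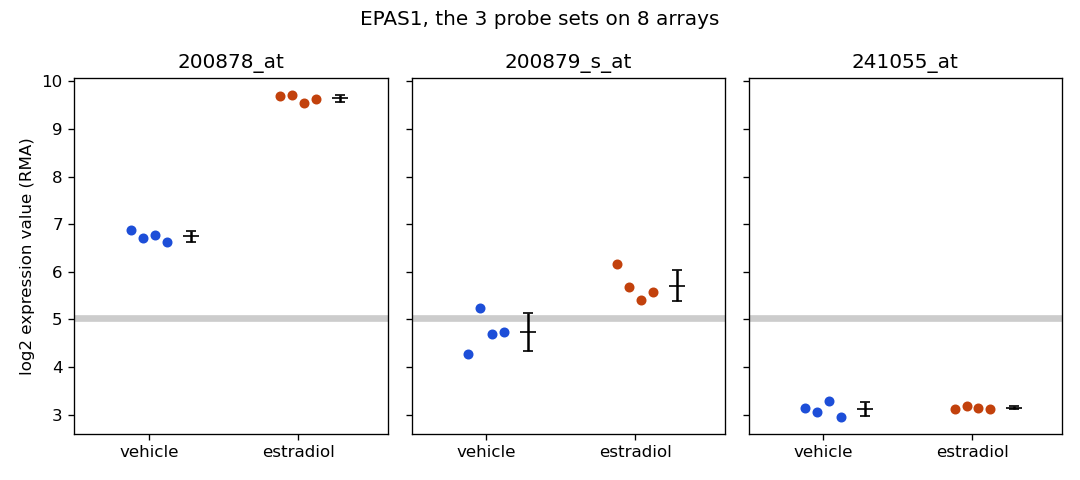
Log2 expression values of the 3 EPAS1 probe sets on the 4 vehicle (blue) and 4 estradiol (orange) arrays, with the group mean and SD in black and the range of the array medians as a grey band. The groups are 2.90 apart on 200878_at, 0.97 apart on 200879_s_at and 0.029 apart on 241055_at, which lies below the band.

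Promoter sequences were set beside these values because 2 transcription factor families are of interest here, C/EBP, which the fusion belongs to, and HIF itself. The 250 bases before the start site are shown for EPAS1, for its partner ARNT and for EGLN1, the hydroxylase that was higher (RefSeq, GRCh38.p14). They run 5′ to 3′, and capitals mark matches to the HIF core letters ACGTG or GCGTG on either strand or to the C/EBP letters TTGCNNAA on either strand.
EPAS1, chr2:46297157-46297406, plus strand: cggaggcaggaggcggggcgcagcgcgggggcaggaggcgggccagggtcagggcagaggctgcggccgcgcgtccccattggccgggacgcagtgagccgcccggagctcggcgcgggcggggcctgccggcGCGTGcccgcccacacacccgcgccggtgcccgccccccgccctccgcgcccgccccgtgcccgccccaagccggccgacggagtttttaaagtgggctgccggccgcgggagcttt
ARNT, chr1:150876600-150876849, minus strand: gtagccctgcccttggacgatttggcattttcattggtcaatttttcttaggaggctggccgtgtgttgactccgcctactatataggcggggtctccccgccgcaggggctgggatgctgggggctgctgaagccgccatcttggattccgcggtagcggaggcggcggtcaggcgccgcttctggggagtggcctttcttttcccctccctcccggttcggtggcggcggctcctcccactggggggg
EGLN1, chr1:231422288-231422537, minus strand: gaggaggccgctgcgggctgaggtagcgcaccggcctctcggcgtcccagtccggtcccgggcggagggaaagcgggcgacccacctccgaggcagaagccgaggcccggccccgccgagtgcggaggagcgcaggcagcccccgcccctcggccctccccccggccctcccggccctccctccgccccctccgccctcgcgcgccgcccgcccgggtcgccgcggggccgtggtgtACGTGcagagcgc

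The EPAS1 window held GCGTG once, 117 to 113 bases before the start site, and no TTGCNNAA. The EGLN1 window held ACGTG once, 13 to 9 bases before the start site. The ARNT window held none of these letters. Of the 10 genes 8 had promoter entries, some with several start sites, and ARNT2 and VHL had none. A HIF core also lay in windows of HIF1A, HIF3A and EGLN2, the last 2 of which were not higher. TTGCNNAA lay in windows of HIF3A and EGLN3, neither of which was higher. Of 35116 promoter windows of the same length, 18.5% held ACGTG, 32.2% held GCGTG and 9.05% held TTGCNNAA, so any of these matches is common. The match is a description of the letters, and which start site the cells used was not measured.

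Among the remaining alpha subunits, HIF1A differed little and HIF3A was slightly lower. HIF1A, the most widely used alpha subunit, had 1 probe set, which read 9.85, 9.88, 9.85 and 9.87 with estradiol and 9.75, 9.53, 9.69 and 9.74 with vehicle. All 4 estradiol arrays lay above all 4 vehicle arrays, with a gap of 0.10. The difference was 0.19 ± 0.054 (SE) and shrank to 0.14 without vehicle replicate 2, the lowest array. HIF3A, which encodes an alpha subunit with several splice forms, some of them inhibitory, had 7 probe sets with differences from −0.14 to 0.052. Its leading probe set read 5.65 to 5.70 with estradiol and 5.72 to 5.87 with vehicle, a difference of −0.11 ± 0.047 with groups that came close without overlapping. On the other 6 HIF3A probe sets the groups overlapped, and 5 of those 6 lay below the median of every array.

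ARNT was higher on 5 of its 7 probe sets, and the groups did not overlap on 4 of those 5. The leading probe set, 218221_at, read 7.80, 7.87, 7.87 and 7.83 with estradiol and 7.49, 7.17, 7.29 and 7.28 with vehicle. The lowest estradiol array lay 0.31 above the highest vehicle array. The means were 7.84 ± 0.033 and 7.31 ± 0.134 (SD, n = 4), a difference of 0.53 ± 0.066 (SE).

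Other ARNT probe sets gave similar sizes. Probe set 230619_at was 0.57 ± 0.077 higher, 210828_s_at 0.60 ± 0.12 higher and 218222_x_at 0.41 ± 0.065 higher, each without overlap. On 231016_s_at the difference was 0.28 ± 0.13, and vehicle replicate 1, at 6.48, lay above all 4 estradiol arrays. The last 2 probe sets, 233724_at and 233714_at, lay below the median of every array and differed by −0.044 and −0.032. The mean of all 7 was 0.33 higher. ARNT2, the relative of ARNT best known from the nervous system, read 3.63 to 3.82 with estradiol and 3.70 to 3.95 with vehicle. Its single probe set lay below the median of every array and the groups overlapped.

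Of the hydroxylases that mark the alpha subunits, EGLN1 was slightly higher and EGLN2 and EGLN3 overlapped between the groups. The leading EGLN1 probe set, 223046_at, read 9.54, 9.58, 9.51 and 9.52 with estradiol and 9.44, 9.26, 9.42 and 9.29 with vehicle. Its groups were separated by 0.078, and the difference was 0.19 ± 0.053 (SE). A similar 0.19 ± 0.061 was measured on 221497_x_at, while 224314_s_at, at 0.15 ± 0.07, and 223045_at, at 0.012 ± 0.13, overlapped between the groups.

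EGLN3, the hydroxylase whose gene is itself a well-known HIF target, was not higher. Its leading probe set read 5.77, 6.21, 6.22 and 5.91 with estradiol and 6.25, 5.79, 6.35 and 6.19 with vehicle. The other read 4.95 to 5.36 and 5.14 to 5.49. The differences were −0.12 ± 0.14 and −0.17 ± 0.11, within the spread of the arrays, and the first was −0.037 without estradiol replicate 1 and −0.24 without vehicle replicate 2. EGLN2 was measured by a single dim probe set that read 3.66 to 4.40 with estradiol and 4.00 to 4.61 with vehicle, a difference of −0.16 ± 0.18 that was −0.0065 without estradiol replicate 1.

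Of the genes that act on the alpha subunits after hydroxylation or beside it, VHL had nearly the same mean in both groups and HIF1AN was slightly higher. VHL, the substrate receptor of the ubiquitin ligase, read 6.50, 6.63, 6.55 and 6.69 with estradiol and 6.57, 6.55, 6.61 and 6.63 with vehicle on its brighter probe set. The group means differed by less than 0.001 ± 0.051 (SE). Its other probe set lay below the lower quartile of every array. HIF1AN, the asparaginyl hydroxylase, read 7.69, 7.82, 7.70 and 7.66 against 7.62, 7.39, 7.58 and 7.64 on its leading probe set. These groups were separated by only 0.017, with a difference of 0.16 ± 0.065 that was 0.10 without vehicle replicate 2. Its other 2 probe sets overlapped between the groups, at 0.057 and 0.088.

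**Figure D2:**
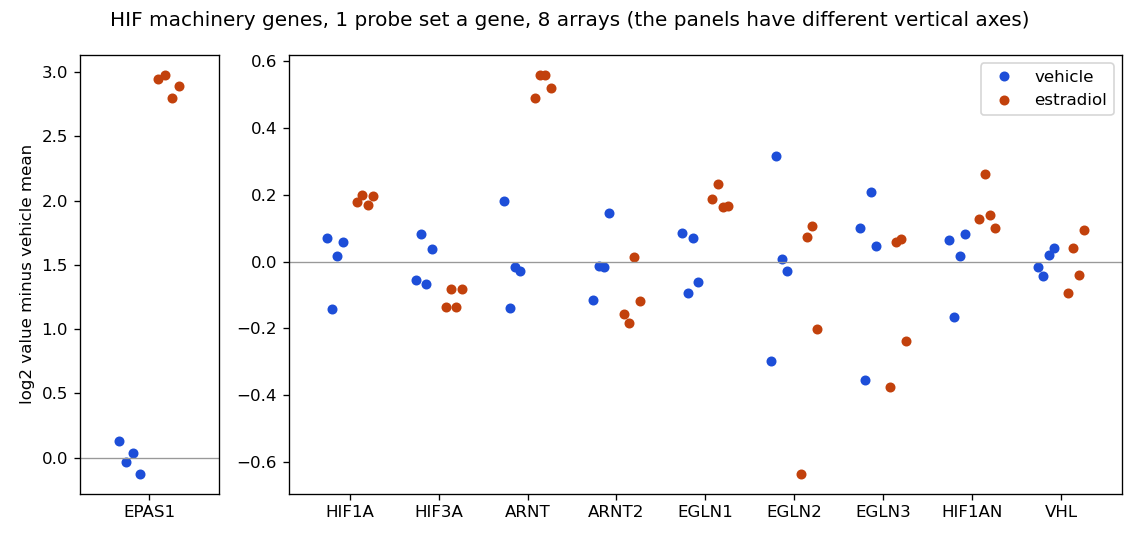
Log2 value of each array minus the vehicle mean of the gene, for the probe set that stands for each of the 10 genes (vehicle blue, estradiol orange); EPAS1 has its own vertical axis. EPAS1 lies 2.90 and ARNT 0.53 above vehicle on average, HIF1A and EGLN1 lie 0.19 above, and the groups of ARNT2, EGLN2, EGLN3 and VHL overlap.

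Counted over the genes, 4 of the 10 members lay past limma's threshold as higher and 0 as lower (1 at an unadjusted p below 0.05). Over all genes 17.9% were called, 8.29% higher and 9.6% lower. The 4 became 2 with each array centred on its median, without any 1 of the 4 estradiol arrays or without vehicle replicate 4. The groups did not overlap in 5 members that were higher and 1 that was lower, against 24.1% of all genes in either direction and 11.1% higher. Counted over probe sets, 6 of 31 lay past the threshold as higher and 0 as lower, beside 13.1% of all probe sets called either way and 6.61% higher. The groups did not overlap on 10 of the 31 probe sets that were higher and 1 that was lower, beside 20.1% of all probe sets, 9.88% higher and 10.2% lower. The median difference was 0.079 over the 10 genes and −0.027 over all genes. As the members were chosen with this contrast known, nothing is read from these counts.

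**Figure D3:**
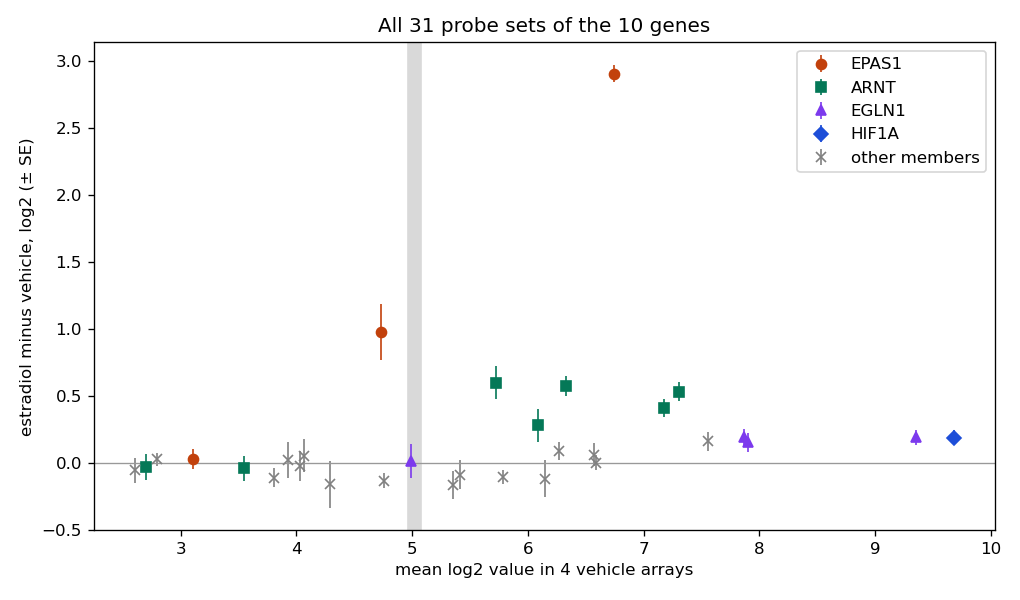
Difference between estradiol and vehicle (log2, with the SE of the fit over all probe sets) against the mean of the 4 vehicle arrays for the 31 probe sets, with the range of the array medians as a grey band. The probe sets of EPAS1 and ARNT that lie near or above the band are higher, and those far below it stay near 0.

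By the root mean square difference of their profiles over the 8 arrays, after the vehicle mean of each gene was taken off, the 5 genes nearest to EPAS1 were ACSL1, KCNE3, PNRC1, TNFSF10 and EREG. The measure was 0.103 for ACSL1, which activates long-chain fatty acids, 0.104 for the potassium channel subunit KCNE3 and 0.11 for the nuclear receptor coactivator PNRC1. It was 0.16 for the death ligand TNFSF10 and 0.18 for the growth factor EREG. ACSL1 read 10.70 to 10.76 with estradiol and 7.60 to 8.06 with vehicle, a difference of 2.89 ± 0.085. Other probe sets of KCNE3 and EREG differed by less, down to 1.63 and 1.17. TNFSF10 read 4.01 to 4.41 with vehicle, below the array medians. The measure favours genes with a difference near 2.90 and was taken over arrays of a single contrast, so it says how alike the sizes were.

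**Figure D4:**
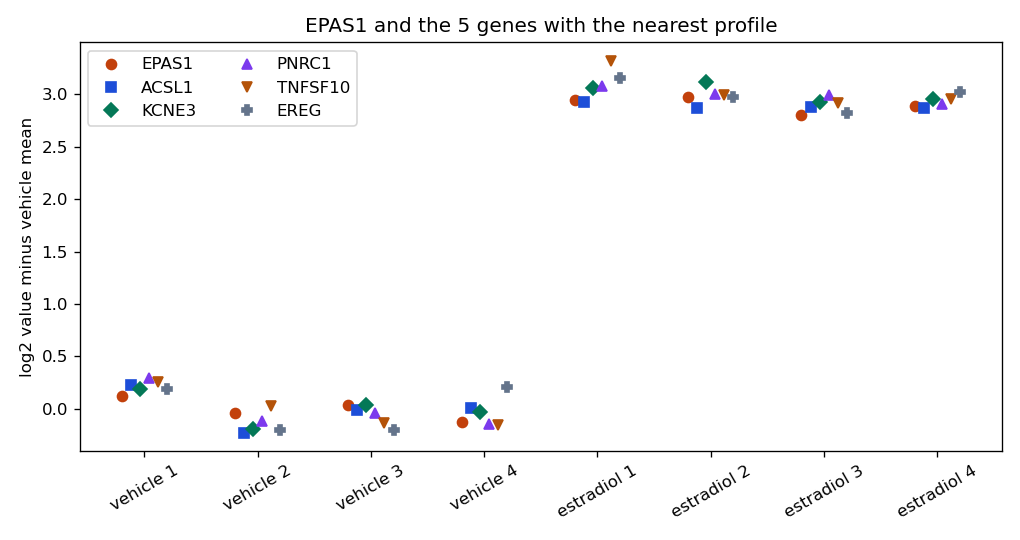
Log2 value minus the vehicle mean on each of the 8 arrays for EPAS1 and the 5 genes with the nearest profile. On the probe set that stands for each gene, the estradiol arrays lie about 3 log2 units above vehicle in all 6 genes, with differences from 2.89 to 3.04.

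Genes known to be regulated by HIF moved in both directions, and 5 lists of them and of related factors were counted. Of 106 listed genes, 99 were measured, and the others were not analysed here. Of the 99, 18 rose, 10 fell and 71 did not pass the test (limma, Benjamini-Hochberg adjusted p below 0.05 over all genes). This is 28.3% called, beside 17.9% of all genes. When genes below the median level were dropped and the 9888 left were fitted anew, 2009 rose and 2267 fell. That fit adjusted p-values over fewer genes, so its counts do not compare directly with those over all genes. The part of signal level in the list counts was not tested. The lists were chosen with earlier results of these data known, so nothing is read from these shares. The median difference was 0.0019, beside −0.027 over all genes.

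Among HIF targets of glucose metabolism, 5 of 22 rose and 5 fell, with a list median of −0.0059. This is 45.5% called, beside 17.9% of all genes. The high-affinity glucose transporter SLC2A3 rose 1.45-fold, with 10.82 to 10.90 on the estradiol arrays and 10.28 to 10.41 on the vehicle arrays (0.54 ± 0.045, adjusted p = 4.65e-05). All 3 of its probe sets were called. The glycogen branching enzyme GBE1 rose 1.40-fold, from 7.77 to 8.06 on the vehicle arrays to 8.34 to 8.52 (adjusted p = 0.00117).

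The falls in this list included kinases that control entry into glycolysis. PFKFB4, which makes an activator of glycolysis, fell 1.44-fold from 7.54 to 7.74 on the vehicle arrays to 6.93 to 7.25 (adjusted p = 0.00148), with 1 of 2 probe sets called. Hexokinase 2, HK2, fell 1.41-fold (adjusted p = 0.000922), with all 3 probe sets called. PFKFB3, a relative of PFKFB4, fell 1.33-fold (adjusted p = 0.00461). ENO2, an enolase, fell 1.40-fold (adjusted p = 0.0266), a call that needed estradiol replicate 4 and vehicle replicates 1, 3 and 4, with adjusted p from 0.06 to 0.0747 when any of them was left out. The ENO2 call was also lost when arrays were blocked by replicate number (adjusted p = 0.0892). Other glycolytic enzymes with strong signals differed in both directions, and they were chosen for naming after their values were seen. Pyruvate kinase, PKM, rose by 0.38 ± 0.049 (adjusted p = 0.000664), while hexokinase 1, HK1, fell by 0.29 ± 0.037 (adjusted p = 0.000512). Phosphoglycerate kinase, PGK1, rose by 0.14 ± 0.038 (adjusted p = 0.0331), a call that was lost without any 1 of the 8 arrays, with adjusted p up to 0.0931. The differences were 0.0095 ± 0.038 for LDHA, lactate dehydrogenase A, −0.0075 ± 0.036 for the enolase ENO1 and −0.02 ± 0.037 for GAPDH, and these did not pass the test. The ubiquitous transporter SLC2A1, named in the same way, was 0.15 ± 0.054 lower (adjusted p = 0.0896).

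Among the other HIF targets 8 of 34 rose, 3 fell and 23 did not pass the test, 32.4% called beside 17.9% of all genes. PLIN2, which coats lipid droplets, led with a 5.91-fold rise. Its stronger probe set read 11.28 to 11.39 on the estradiol arrays and 8.63 to 8.95 on the vehicle arrays (2.56 ± 0.069, adjusted p = 6.85e-08), while the other showed −0.034. ERO1A, an oxidase of the endoplasmic reticulum, rose 1.82-fold on 3 of 3 called probe sets (adjusted p = 2.86e-05).

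VEGFA, the growth factor of blood vessels, rose 1.66-fold, with 9.51, 9.39, 9.32 and 9.46 on the estradiol arrays and 8.87, 8.56, 8.56 and 8.75 on the vehicle arrays. All 4 of its probe sets were called, from 0.31 to 0.73 (adjusted p = 0.000229 for the leading one). DDIT4, an inhibitor of mTOR signalling, rose 1.73-fold (adjusted p = 0.000165). CITED2, which competes with HIF for its coactivators, rose 1.62-fold on 2 of 3 called probe sets (adjusted p = 9.81e-06). The fall that led this list was that of PPP1R3C, a glycogen-targeting phosphatase subunit, 1.62-fold lower on 1 of 2 probe sets (adjusted p = 0.00114).

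Several targets often used as readouts of hypoxia did not pass the test, and these were chosen for naming after their values were seen. ADM, the peptide adrenomedullin, differed by 0.10 ± 0.11 (adjusted p = 0.635), with means of 5.35 and 5.24 that lay near the array medians. NDRG1, a growth-related stress gene, differed by 0.036 ± 0.11 (adjusted p = 0.881). The mitophagy genes BNIP3 and BNIP3L differed by 0.11 ± 0.056 (adjusted p = 0.229) and −0.083 ± 0.047 (adjusted p = 0.304). Further targets of the same list did pass limma's test. BHLHE40 differed by 0.66 (adjusted p = 0.00136), ANKRD37 by 0.37 (adjusted p = 0.0207) and ZNF395 by 0.26 (adjusted p = 0.0196). For ANKRD37 1 of 2 probe sets was called, the other was at −0.019, and the groups overlapped. For ZNF395 1 of 3 probe sets was called. HILPDA differed by −0.295 (adjusted p = 0.00263) and STC2 by −0.49 (adjusted p = 0.0214).

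Of 10 measured genes tied to EPAS1 in particular, 1 rose and 1 fell, and 8 did not pass the test. This is 20% called, beside 17.9% of all genes. Among the genes that did not pass, CYBRD1, SLC11A2 and FLT1 each had 1 further probe set called over all probe sets. That probe set was lower for CYBRD1, at −0.43, and for SLC11A2, and higher for FLT1. The iron exporter SLC40A1 rose 1.22-fold, from 8.97 to 9.24 on the vehicle arrays to 9.34 to 9.49 (adjusted p = 0.0112). The cyclin CCND1 fell 1.23-fold, by 0.30 on the log2 scale (adjusted p = 0.0315), with its other probe set 0.67 lower. That call needed estradiol replicates 1, 2 and 4 and vehicle replicates 1, 2 and 3, with adjusted p from 0.0534 to 0.0892 when any of these was left out. EPO, the erythropoietin gene and a classic EPAS1 target, read 4.86 to 5.33 with estradiol and 4.92 to 5.43 with vehicle (adjusted p = 0.685), a gene named after its values were seen. These levels lay near the array medians, as did those of TGFA, with means of 5.06 with estradiol and 5.15 with vehicle. KDR, at 3.15 and 3.24, lay below the lower quartile of the arrays. Differences of genes this dim may be understated. The list median was −0.081.

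Among 22 measured partners, modifiers and degradation factors of HIF, 4 rose and 1 fell, 22.7% called beside 17.9% of all genes. The coactivators EP300 and CREBBP rose by 0.36 ± 0.054 (adjusted p = 0.00151) and 0.26 ± 0.061 (adjusted p = 0.0157). Both probe sets of EP300 were called, but only 1 of 4 for CREBBP, whose mean over probe sets differed by 0.043 (adjusted p = 0.727). The LIM-domain scaffold protein AJUBA rose 1.48-fold on 1 of 4 called probe sets (adjusted p = 0.000496). ELOC, the elongin subunit that VHL binds, rose by 0.17 ± 0.038 on the probe set that stands for it (adjusted p = 0.0142) and was 0.40 higher on the other. When estradiol replicate 4 was left out, the adjusted p of the first was 0.0549, and over all the alternatives tried it reached 0.0719. SIAH2, a ubiquitin ligase for the EGLN proteins, fell 1.25-fold, from 8.63 to 8.83 on the vehicle arrays to 8.34 to 8.45 (adjusted p = 0.00297).

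None of 11 measured relatives of the HIF subunits from the bHLH-PAS family passed limma's test over all genes, beside 17.9% of all genes. At an unadjusted p below 0.05, 1 of them passed. That gene was AHR, the dioxin receptor, which read 3.67 to 3.89 with estradiol and 3.94 to 4.05 with vehicle (−0.19 ± 0.059, adjusted p = 0.0525). These levels lay below the array medians. So did those of other relatives, such as SIM1, with means of 4.01 with estradiol and 4.02 with vehicle, and AHRR, with 4.89 and 4.92. Differences of such dim genes may be understated. The circadian factor BMAL1, named after its values were seen, was 0.20 higher on the probe set that stands for it (adjusted p = 0.231), and 1 of its 2 probe sets, at 0.53, was called over all probe sets. CLOCK, named in the same way, differed by 0.037 on its leading probe set, and 1 of its 4 probe sets was called as lower.

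**Figure D5:**
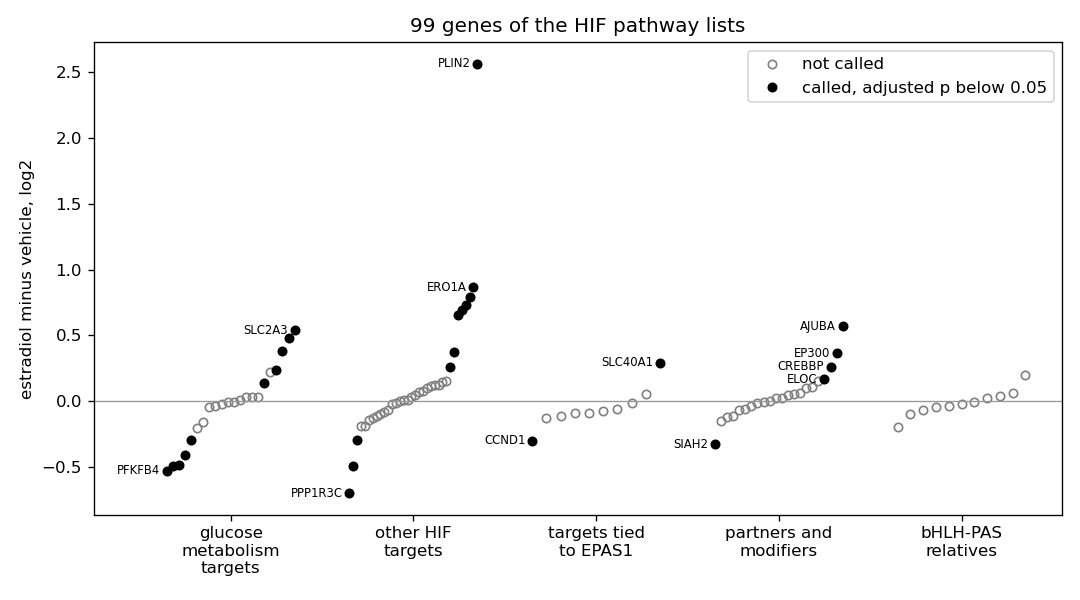
Difference between estradiol and vehicle (log2) for the 99 measured genes of the 5 lists, in rising order within each list, with genes that passed the test filled. PLIN2 stands apart at 2.56, the list of glucose metabolism targets has 5 filled points on each side of 0, and the bHLH-PAS list has none.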

How the data were processed

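RNA from 8 samples (200 ng of total RNA each, per the labels' protocols) was amplified and hybridised to arrays with a biotin label. The authors deposited log2 expression values, 1 per probe set; the tool was RMA according to the submitters' processing notes, with its version unstated. RMA forces the probe intensities of the arrays to the same distribution, so a shift of most genes would be hidden. The values per probe set can still differ in distribution, as the array medians did. RMA also understates changes of dim genes. The chip definition used was not given in the sources used here.

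Each gene was represented by its brightest probe set, by the mean of the 8 arrays. Differences, estradiol minus vehicle, came from limma 3.58.1 (lmFit and eBayes, no block, two-sided) in R 4.3.3, with no filter on dim genes. P-values were adjusted by Benjamini-Hochberg over all 19775 genes and called below 0.05. SDs are over 4 arrays and SEs are limma's moderated ones, from the fit over genes for the probe set that stands for a gene and over 41097 probe sets for the others. The fit was tested on simulated data. The members and gene lists were chosen with earlier results of these data known.

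Named genes were all members, up to 6 called genes of each list with the largest difference, the gene with the smallest p where fewer than 2 were called, and the 5 nearest to EPAS1. Alternatives were a replicate block, other scalings, filters, probe set rules, variance models and thresholds, and each array left out. Figures were drawn with matplotlib 3.10.9.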

Additional observations from a re-analysis of the deposited data

Results flagged for a closer look

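Of 112 groups of 4 arrays examined, 6 held an array whose gap to the nearest of the others was too large a share of the group's range by Dixon's test, and chance flags about 5% of groups. HIF1AN probe set 59999_at was flagged in both groups, with estradiol replicate 1 at 6.45 against 6.67 to 6.72 in the others and vehicle replicate 2 at 6.37 against 6.62 to 6.66. EP300 was lowest in estradiol replicate 1, at 6.82 against 6.92 to 6.94. ACSL1 was highest in the same array, at 10.76 against 10.70 to 10.71. EGLN1 probe set 221497_x_at was highest in estradiol replicate 3, at 8.13 against 8.04 in each of the others. HIF3A probe set 232669_at was lowest in estradiol replicate 2, at 3.96 against 4.02 to 4.03.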

How the results depend on the processing

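EPAS1 was higher in all 18 alternatives to its main value, by 2.86 to 2.95 without any 1 array and by 1.30 with the mean of its probe sets. Some alternatives cannot change a gene's difference: the replicate block, the filters on dim genes, and trend and robust fitting. Testing each probe set on its own cannot change it either. These therefore say nothing about the direction of any member. HIF1A, ARNT, EGLN1 and HIF1AN kept their direction in all 18, and VHL, near 0, did not. HIF3A, ARNT2, EGLN2 and EGLN3 also stayed lower in every alternative that held them, though none of them was called. The members called higher numbered 2 in place of 4 with the replicate block, with median centring, with every probe set tested on its own and at adjusted p below 0.01, and 2 to 4 without any 1 array, while the members called lower stayed at 0. Over all genes 1639 rose and 1899 fell, 1276 to 1792 and 1456 to 2058 without any 1 array. At adjusted p below 0.01 these were 1040 and 1139, and 2716 probe sets rose when each was tested on its own. Same-numbered arrays deviated together with correlations of −0.21 to 0.11, and only estradiol replicate 3 matched its own number best, so the numbers were not taken as pairs. With the replicate block 3 glucose metabolism targets and 2 partners were called higher, and 1232 genes rose and 1366 fell. Partners called higher also numbered 2 at adjusted p below 0.01, and those called lower 2 with quantile normalization, without genes below the median level and with trend and robust fitting. Other targets called lower numbered 5 in place of 3 with the mean of probe sets, with trend and robust fitting and with array weights. Targets tied to EPAS1 lost the rise and the fall at adjusted p below 0.01 (0 each), and had 2 falls with the mean of probe sets. Without genes below the median level they had 0 falls, because that filter removed CCND1 itself, so its call was not retested. In the bHLH-PAS list 1 gene was called higher with the mean of probe sets, and 1 higher and 1 lower with array weights. Without any 1 array, calls higher and lower ran from 4 to 4 and 4 to 6 for glucose metabolism, 6 to 10 and 2 to 4 for other targets, 1 to 1 and 0 to 1 for targets tied to EPAS1, 3 to 4 and 1 to 2 for partners, and 0 to 1 each for bHLH-PAS genes. With median centring 54.5% of all calls were rises, against 46.3%. Of the 25 genes outside the members that the naming rule gave, 5 lost and 1 gained a call under some alternative, and 0 reversed. No cause of these shifts was tested. Probe sets below the array medians may understate differences, and the RNA level says nothing of HIF protein.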

Other observations

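The nearest measured protein-coding genes on each side of EPAS1 in the RefSeq gene order, 2 per side, were examined after the data had been seen. SRBD1, a putative RNA-binding protein, differed by −0.029 ± 0.062 (SE) and PRKCE, a protein kinase C, by −0.11 ± 0.15. On the other side ATP6V1E2, a subunit of the vacuolar proton pump, differed by −0.13 ± 0.074 and RHOQ, a small GTPase, by 0.049 ± 0.077. None of these 4 passed limma's test, with adjusted p from 0.325 to 0.828, and 0 did at an unadjusted p below 0.05.

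Around ARNT, CERS2, a ceramide synthase, fell by 0.18 ± 0.043 (adjusted p = 0.0176), while CTSK, a cathepsin, was 0.21 ± 0.065 higher without passing the test (adjusted p = 0.0545). CTSS, another cathepsin, differed by −0.11 ± 0.082 (adjusted p = 0.469) and SETDB1, a histone methyltransferase, by 0.01 ± 0.05 (adjusted p = 0.931).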
